A study of Mus musculus with 7 samples.

Results

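Rab genes encode small GTPases that direct vesicles between the membranes of a cell. They were taken as every region of the deposited ChIP-seq table whose nearest gene has a Rab symbol with a number and at most a letter and a digit after it, and whose distance to that gene's transcription start site (TSS) is 100 kb or less. The rule uses names and positions and no measured value. It found 236 of 93611 regions, near 52 of the 18214 genes with a region within that distance. A further 22 regions of these genes lay beyond it. By symbol, RefSeq lists 59 protein-coding mouse Rab genes of this form, and the other 7 (Rab19, Rab25, Rab27b, Rab36, Rab3b, Rab6a and Rab9b) are not analysed here.

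The cells were bone marrow-derived dendritic cells (BMDCs) of C57BL/6 mice, antigen-presenting cells grown from marrow in IL-4 (10 ng/ml) and GM-CSF (20 ng/ml). There were 7 libraries and 1 library per group. The wild-type (WT) groups were anti-RelB ChIP of untreated cells (0 h), anti-RelB ChIP after 1 h with LPS at 10 ng/mL, anti-RelA ChIP after 1 h with LPS, and an input library without antibody, whose time and treatment the labels do not give. The RelBko groups, cells without RelB, were anti-RelB ChIP at 0 h, anti-RelB ChIP after 1 h with LPS and anti-RelA ChIP after 1 h with LPS. The RelB groups rest on the antibody given for each sample, since the protocol text names only that against RelA. The treatment is labelled LPS throughout, but the protocol text gives for the reagent a product name that belongs to a CpG oligonucleotide, so the agent behind the 1 h values is called LPS below as labelled. All groups shared the strain, the culture and fixation with DSG at 1.0 mM and PFA at 1.0%. The sources used here do not give the age of the mice, the making of the RelBko allele or any pooling of animals. With 1 library per group, no difference below has a replicate check and none was tested.

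Rab proteins switch between a GTP-bound form, which sits on a membrane and recruits effectors, and a GDP-bound form, which is held in the cytosol by GDP dissociation inhibitors. Exchange factors load GTP and GTPase-activating proteins end the cycle. Each Rab marks its own compartments, so the family covers uptake into early endosomes, recycling to the surface, transport to lysosomes and phagosomes, the Golgi and regulated secretion. In dendritic cells these routes carry antigen, receptors and cytokines. The transcription factor NF-kB binds DNA as dimers whose subunits include RelA and RelB. LPS, a bacterial cell wall component, activates RelA, and RelB is known for its part in dendritic cell maturation. ChIP-seq reads where such a factor sits on DNA, and says nothing of RNA or protein levels.

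Promoter windows of 300 bases (250 before and 50 after a gene's start) were taken from RefSeq on GRCm38, a later build than the mm9 of the regions. Of the 52 genes, 43 had at least 1 window, 55 windows in all. Among the 15 genes whose strongest region was a promoter, Rab5a and Rab28 had the highest means over the WT ChIP libraries, and their windows are shown. The strongest Rab5a and Rab28 regions overlapped these windows in position relative to the start. Rab5a acts in early endosome fusion and Rab28 is best known from cilia and photoreceptors. Capitals mark matches to the loose kappa B form (GGG, any 5 bases, then CC) on either strand. In Rab28, the leftmost capital run also matches the stricter kappa B consensus, 10 bases before the start.

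Rab5a, GRCm38, chr17:53478984-53479283, plus strand: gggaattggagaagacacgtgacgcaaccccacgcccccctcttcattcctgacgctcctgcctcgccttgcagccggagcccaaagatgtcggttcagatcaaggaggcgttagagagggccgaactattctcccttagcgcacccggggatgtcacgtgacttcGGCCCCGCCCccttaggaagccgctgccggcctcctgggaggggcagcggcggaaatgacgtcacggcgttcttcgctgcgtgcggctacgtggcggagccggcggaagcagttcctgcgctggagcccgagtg
Rab28, GRCm38, chr5:41708130-41708429, minus strand: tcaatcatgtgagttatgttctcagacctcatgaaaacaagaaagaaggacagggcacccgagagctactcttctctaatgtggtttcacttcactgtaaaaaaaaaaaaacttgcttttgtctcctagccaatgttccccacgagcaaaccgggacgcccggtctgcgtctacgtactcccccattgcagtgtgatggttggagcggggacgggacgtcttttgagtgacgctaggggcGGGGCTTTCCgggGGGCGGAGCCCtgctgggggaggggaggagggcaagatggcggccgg

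The Rab5a region reached from 462 to 124 bases before the start as annotated in mm9, and the Rab28 region from 223 bases before it to 193 after it. By these positions the capital run of Rab5a lay outside the Rab5a region, closer to the start, while those of Rab28 lay inside the Rab28 region. The kappa B consensus was found in 2 of 55 Rab windows (3.64%, Rab15 and Rab28) and in 4.53% of all 32544 windows. The loose form, which includes the consensus matches, was found in 38 Rab windows (69.1%) and in 51.0% of all windows. TGANTCA, the AP-1 site, was in 3 Rab windows (5.45%) and 7.79% of all. GAGGAAG, part of the PU.1 site, was in 7 (12.7%) and 13.4%. The interferon response element (GAAA, any 2 bases, then GAAA) was in no Rab window and in 3.45% of all. Both strands were searched, and windows of the same gene can overlap. Windows of identical sequence were counted once among all windows but not among the Rab windows, so the shares have slightly different bases. A match is a description of letters and not a bound site.

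The libraries held 13188833 (input) to 35064429 reads (RelB, WT, 0 h), and the share inside the table's regions was 37.2% to 42.4% for RelB in WT and RelA in either genotype. For RelB in RelBko it was 7.41% at 0 h and 4.62% at 1 h, against 3.52% in the input. No RNA was measured, so the loss of RelB in RelBko was not checked beyond this drop in anti-RelB signal. Around genes of the dendritic cell list (Itgax, Zbtb46, Flt3 and others), all 11 of 11 had a region enriched for RelA in WT, at 52.7 to 119 RPKM. Of all genes, 92.9% were enriched in that library, and their median was 13.2 RPKM. Marker genes of macrophages, neutrophils, B cells and T cells were enriched too (4, 4, 3 and 3 genes, with medians of 32.5, 13.5, 7.86 and 15.4 RPKM), so binding near a gene does not identify the cell type. The share of other cells in the cultures was not tested.

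Rab genes had 1 to 14 regions each, with a median of 4 against 3 for all genes. A single region stood for 9 genes, while 7 genes had 10 or more, Rab11a with 14 and Rab8b with 12 at the upper end. Introns held 126 Rab regions (53.4%, against 45.1% of all regions within 100 kb), intergenic DNA 53 (22.5% against 36.2%) and promoters 34 (14.4% against 12.4%). Regions were 168 to 960 bases long. Of the intronic ones, 8 lay upstream of the TSS from which their distance was measured. Genes such as Rab7 and Rab37 have more than 1 such start, so upstream introns of those genes can still lie within them. Regions were assigned by the nearest TSS, and whether an intron is one of the Rab gene or of a neighbour was not tested. To compare genes, each was read at its strongest region, the region with the highest mean RPKM over the 6 ChIP libraries. RPKM divides reads by the length of the region and the depth of the library, so levels can be set side by side between genes. That region was a promoter for 15 genes, lay within 1 kb of the TSS for 27 and beyond 10 kb for 15. For Rab7b and Rab33b it was such an upstream intron, 16000 and 16015 bases before the TSS. Coordinates below are mm9 as deposited, and negative distances are upstream of the TSS.

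A region counted as enriched if it held at least 2 RPKM and exceeded the input at least 2-fold, with 0.5 RPKM added to both. For RelB in WT, 47 of 52 Rab genes were enriched at 0 h (88.7% of all genes) and 49 at 1 h (91.7% of all genes). For RelA at 1 h, 50 were enriched in WT (92.9% of all genes) and 49 in RelBko (90.0%). For RelB in RelBko, 25 were enriched at 0 h (46.1% of all genes) and 9 at 1 h (14.3%). The Rab shares lay near those of all genes in every library. In all 3 WT ChIP libraries 47 Rab genes were enriched, a count that was not made over all genes. The 5 others were Rab13, Rab23, Rab39b, Rab40b and Rab4a, chosen after their values were seen. Their mean over those libraries was 1.67 to 3.14 RPKM, among the lowest 11.4% of all genes. The limit of 2 RPKM itself selects for such low values.

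**Figure D1:**
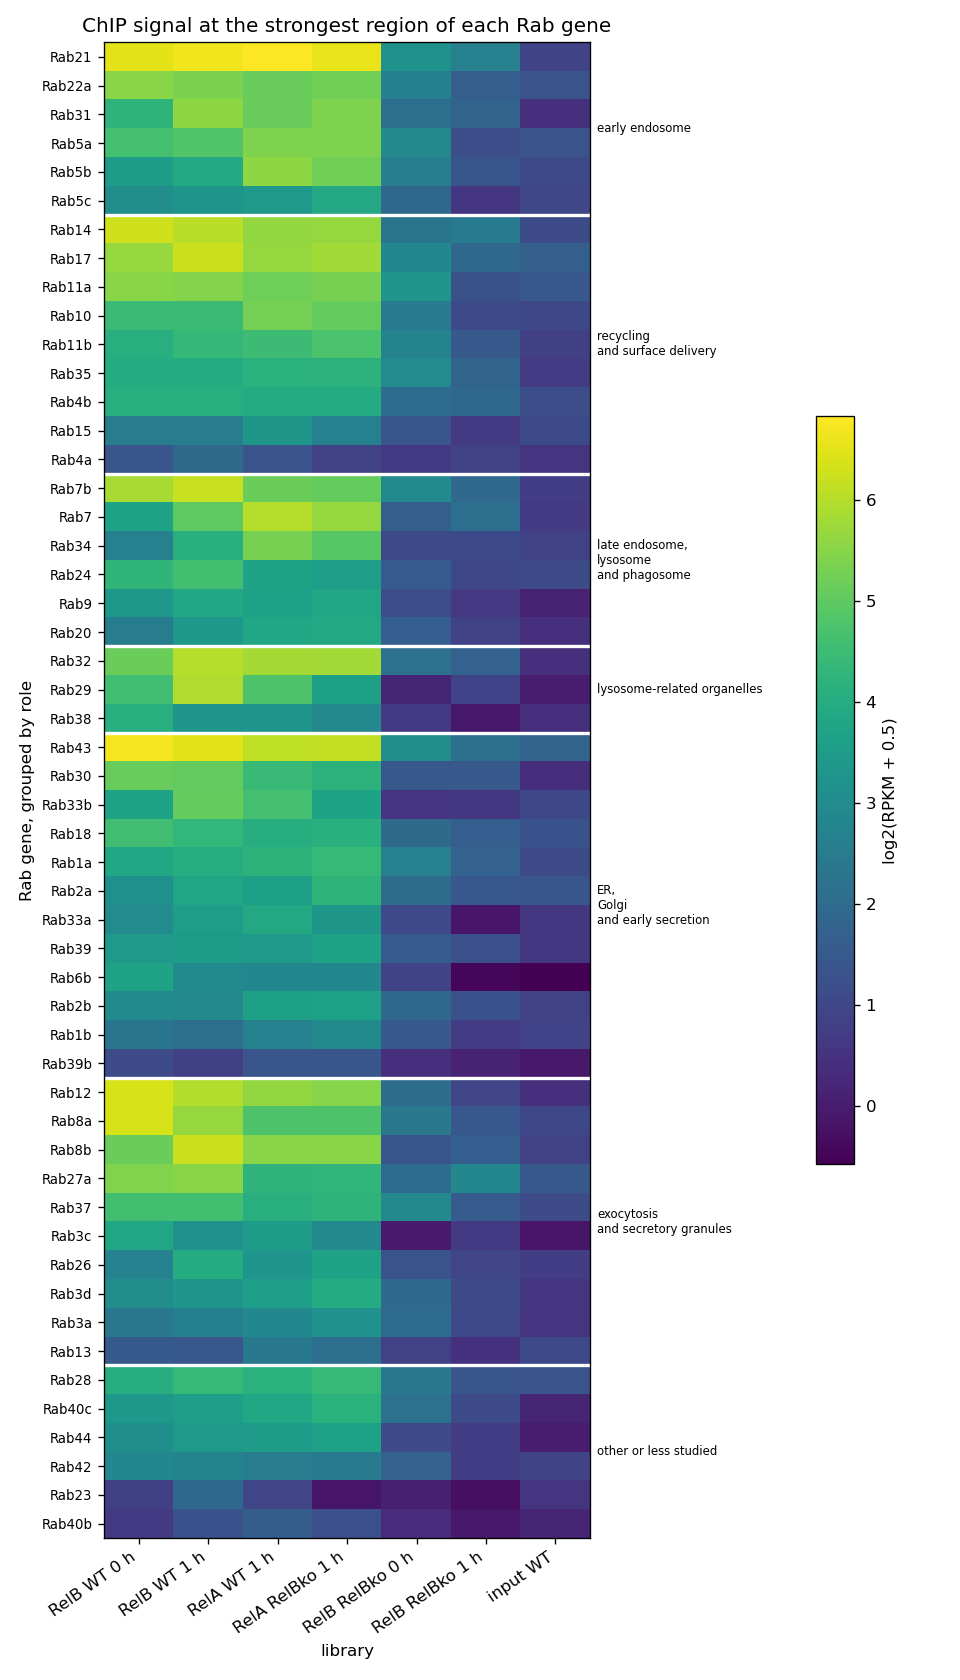
Signal at the strongest region of each of the 52 Rab genes (rows, grouped by role) in the 7 libraries (columns), in colour as log2(RPKM + 0.5). The 4 columns at the left, RelB in WT and RelA in either genotype, are bright for most genes, with Rab21 and Rab43 brightest, while RelB in RelBko is darker, with medians of 3.34 RPKM at 0 h and 1.77 at 1 h against 1.31 in the input.

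The 8 genes with the highest mean over the WT ChIP libraries were Rab21, Rab43, Rab12, Rab14, Rab17, Rab7b, Rab8a and Rab32, from 102 down to 52.0 RPKM. Rab21, which acts at early endosomes and in integrin traffic, exceeded 99% of all genes (chr10:114751849-114752224, intron, 610 bases after the TSS). It had 91.6 RPKM of RelB at 0 h, 102 of RelB at 1 h and 113 of RelA in WT, and 8.85, 5.74 and 95.7 RPKM in RelBko, with 1.42 in the input. A Rab21 region 17529 bases upstream reached 135 RPKM of RelB at 1 h in WT, the highest value of any Rab region in any library. Rab43, a Golgi Rab linked to antigen cross-presentation, had 104, 89.3 and 68.5 RPKM in WT and 8.12, 3.95 and 70.3 RPKM in RelBko in the same order, with 2.92 in the input (chr6:87759178-87759516, intron). Both genes were high for RelA in either genotype and for RelB in WT, and low in the other 3 libraries.

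By role, the 6 early endosome genes had median levels of 21.1, 34.2 and 38.3 RPKM for RelB at 0 h, RelB at 1 h and RelA in WT. The 9 genes of recycling and surface delivery had 16.6, 19.9 and 22.1 RPKM, and the 6 of late endosome, lysosome and phagosome 11.2, 20.0 and 24.5 RPKM. The 3 of lysosome-related organelles (Rab29, Rab32 and Rab38) had 22.8, 61.0 and 26.7 RPKM. The 10 exocytosis genes had 18.4, 19.6 and 13.8 RPKM, and the 12 of ER, Golgi and early secretion 11.2, 12.3 and 13.0 RPKM. The 6 less studied members had 7.47, 8.34 and 8.19 RPKM. Within each role the genes spread widely, as from 9.01 (Rab5c) to 102 RPKM (Rab21) for the WT mean of the early endosome genes.

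At 1 h, RelB signal in WT was set against that in RelBko to see how much of the anti-RelB signal near Rab genes was present without RelB. Differences are log2 ratios of RPKM + 0.5, over regions enriched in at least 1 of both libraries, and were called at 2-fold. All 49 compared Rab genes were higher in WT (97.9% of all genes were) and 0 were lower (0.0837% of all genes). Their median log2 ratio was 3.01, against 2.85 for all genes. Of 197 compared Rab regions, 191 were higher (95.9% of all regions) and 0 were lower (0.128%). Rab genes thus moved with the table as a whole, and the 49 entered through the WT library, so nothing about Rab genes in particular follows from their count. Scaled so that the median ratio of all compared regions is 1, a shift of -2.47 in log2, 18 Rab genes were higher and 2 lower. Fewer bound cells and less binding per cell cannot be told apart in such bulk libraries, here or below.

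Rab29, which recruits the kinase LRRK2 to lysosomes and the Golgi, had the largest ratio of the 49. Its region 17316 bases upstream (chr1:133746313-133746763, intergenic) held 61.0 RPKM in WT (780 reads) and 1.37 in RelBko (12 reads), with 0.505 in the input. The ratio of reads per library total was 44.6 (exact Clopper-Pearson 95% interval 25.4 to 86.7, which covers counting error only, as do all intervals here). Rab12, a regulator of receptor degradation, followed at 61.9 against 1.47 RPKM, a ratio of 42.3 (22.8 to 88.6). Rab8b, which acts in delivery to the plasma membrane, had 75.3 against 2.64 RPKM, and Rab33b, a Golgi Rab that binds the autophagy machinery, 32.9 against 1.03 RPKM. The smallest ratio was that of Rab4a, a rapid recycling Rab, at 3.47 against 1.31 RPKM (ratio 2.66, 1.20 to 6.69). Rab4a and Rab1b were the 2 genes lower under the median scaling. By role, medians ran from 2.39 for the less studied members to 4.25 for the lysosome-related organelle genes.

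At 0 h, before LPS, 42 of 47 compared Rab genes were higher in WT (85.7% of all genes) and 0 were lower (0.179%), with a median log2 ratio of 2.04 against 1.99 for all genes. As at 1 h, the compared Rab genes were all enriched in the WT library, through which they entered. Rab29 again had the largest ratio, 22.8 against 0.635 RPKM (360 and 5 reads, ratio 35.9, 15.2 to 111). Rab12 had 82.6 against 3.59 RPKM, Rab14, which acts between endosomes and Golgi, 77.6 against 4.46 RPKM, and Rab8a, the paralog of Rab8b, 82.5 against 4.78 RPKM. The 5 compared genes within 2-fold were Rab1b, Rab20, Rab35, Rab3a and Rab5b, with log2 ratios of 0.39 (Rab3a) to 1.00 (Rab35), the latter just under the limit. Scaled on regions enriched in no ChIP library (shift -0.80), 28 genes were higher, and with a median ratio of 1 (shift -1.85), 15 were higher and 2 lower.

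At the level of regions, 159 of 191 were higher in WT at 0 h (86.0% of all regions) and 2 were lower (0.504%). Both of the latter were 170-base introns near Rab7, 7795 bases upstream and 12182 bases downstream of a TSS, with 0.336 and 0.503 RPKM in WT and 3.70 RPKM at each in RelBko. Each held 11 reads in the RelBko library at 0 h and 2 at 1 h. Whether the same reads were placed at both was not tested. Among promoters, 24 of 29 compared Rab regions were higher (82.8%), and elsewhere 135 of 162 (83.3%). Over all compared regions within 100 kb these shares were 74.3% and 87.5%.

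**Figure D2:**
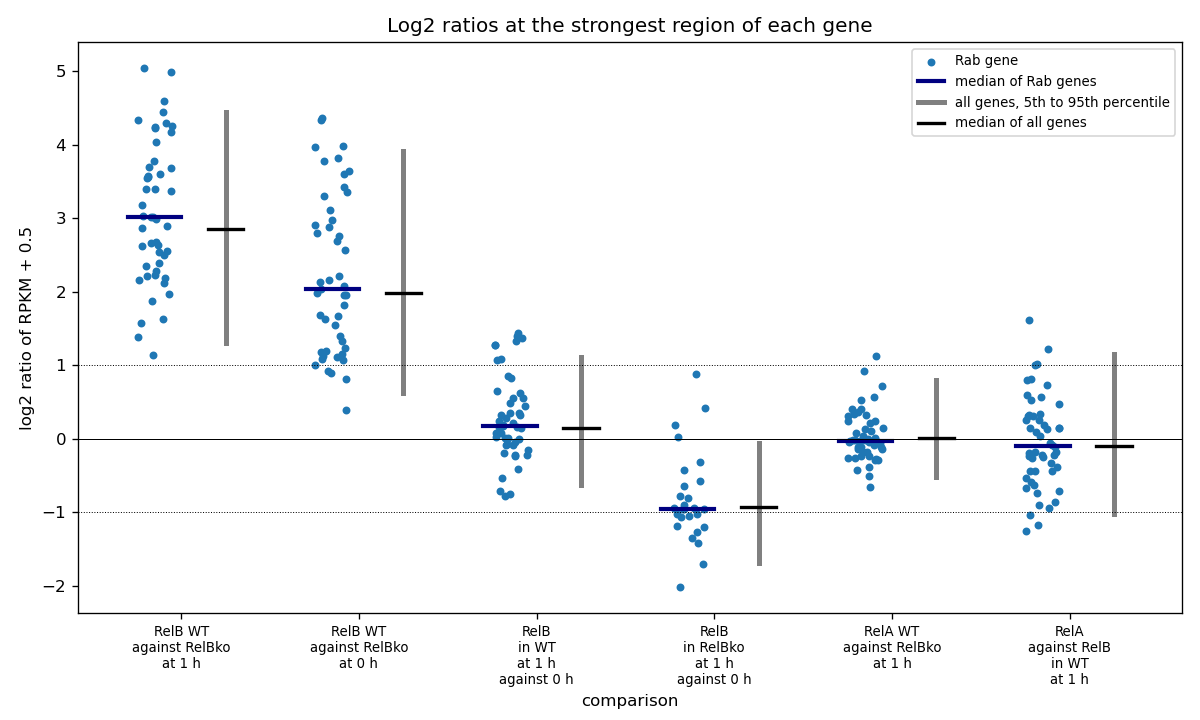
Log2 ratios of RPKM + 0.5 at the strongest region of each compared Rab gene (points) in the 6 comparisons, with the median of Rab genes (dark bar) beside the median and the 5th to 95th percentile range of all genes (black and grey). The Rab medians lie close to those of all genes, as 3.01 and 2.85 in the leftmost comparison, and dotted lines mark 2-fold.

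The change of RelB signal over 1 h of LPS was read within each genotype. In WT, 8 of 49 compared Rab genes rose (6.58% of all genes) and 0 fell (1.09%). The median log2 ratio was 0.17, against 0.15 for all genes. The 8 were Rab34, Rab29, Rab33b, Rab31, Rab26, Rab7, Rab23 and Rab8b. They came from 6 of the 7 roles, and none of the 9 compared genes of recycling and surface delivery was among them. Scaled to a median ratio of 1 (shift -0.14), 6 rose, without Rab23 and Rab8b. Read at the region nearest to the TSS instead of the strongest, 4 genes rose, Rab34, Rab26, Rab23 and Rab3c.

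Rab34 had the largest rise. This Rab positions lysosomes and acts in phagosome maturation. Its only region, in the 5′ UTR 342 bases from the TSS (chr11:78002418-78002765), went from 5.75 to 16.4 RPKM (70 and 162 reads), a ratio of 2.85 (2.14 to 3.83). In RelBko the same region had 1.65 and 1.63 RPKM of RelB, and the input had 1.31. RelA was 38.8 RPKM in WT and 29.4 in RelBko, so the RelA libraries were higher than the RelB libraries at this region.

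Rab29 went from 22.8 to 61.0 RPKM (ratio 2.67, 2.36 to 3.04). A further Rab29 region, in an intron 852 bases after the TSS, went from 2.17 to 15.6 RPKM (ratio 7.20, 4.86 to 11.0), and its log2 ratio of 2.59 was the highest of all 208 compared Rab regions. Rab33b went from 12.4 to 32.9 RPKM (2.66, 2.18 to 3.24) and Rab31, an endosome and trans-Golgi Rab, from 18.3 to 46.9 RPKM (2.56, 2.18 to 3.02). Rab26, of secretory granules, went from 6.09 to 15.5 RPKM and Rab7, which drives fusion of late endosomes with lysosomes, from 12.7 to 31.3 RPKM. Rab8b, the strongest of the 8, went from 35.7 to 75.3 RPKM (2.11, 1.87 to 2.38). Rab23, known from cilia and Hedgehog signalling, rested on 14 and 29 reads (1.27 to 3.25 RPKM).

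No Rab gene fell at 2-fold in WT. The lowest log2 ratios were -0.78 for Rab38, a melanosome Rab, at 16.1 and 9.16 RPKM, and -0.76 for Rab6b, a Golgi Rab, at 12.5 and 7.20 RPKM. Rab8a, at -0.71, went from 82.5 to 50.3 RPKM (ratio 0.609, 0.546 to 0.679), and Rab3c, a synaptic vesicle Rab, had -0.54. Of the 8 genes with the highest WT signal, Rab8a, Rab12, Rab43 and Rab14 had ratios below 1, and Rab21, Rab7b, Rab17 and Rab32 above 1, all within 2-fold.

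**Figure D3:**
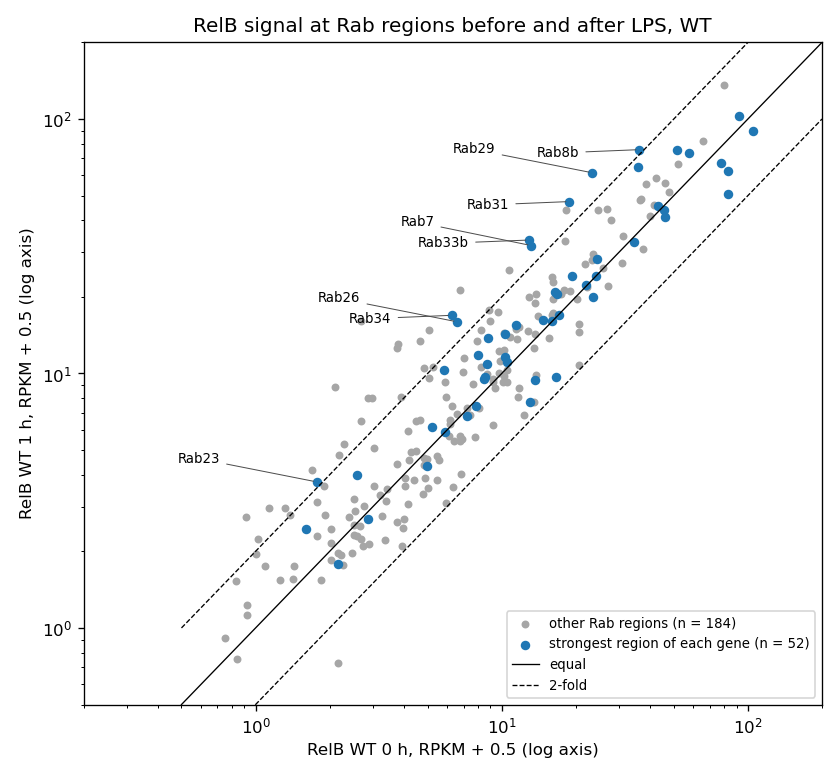
RelB signal in WT at 0 h (horizontal) and 1 h after LPS (vertical), RPKM + 0.5 on log axes, for the strongest region of each Rab gene (blue, n = 52) and the other Rab regions (grey, n = 184). The 8 named genes lie above the upper 2-fold line, and no blue point lies below the lower line.

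Over all Rab regions, 31 of 208 rose with LPS in WT (11.0% of all regions) and 0 fell (1.68%). The 31 regions lay near 21 genes, and 16 were more than 10 kb from the TSS. By class, 16 were introns, 8 were intergenic and only 1 was a promoter (that of Rab3c, 1.20 to 3.69 RPKM on 16 and 40 reads). Of 31 compared promoters 3.23% rose, against 16.9% of the 177 other Rab regions. Over all compared regions within 100 kb those shares were 4.26% and 12.1%. Rab8b had 4 rising regions of 12, and Rab7 and Rab37, the latter a Rab of cytokine secretion, had 3 each of 9 compared. At Rab7 they lay 15510 and 11762 bases upstream (17.8 to 43.2 RPKM at the latter) and 10104 bases downstream of another start (3.30 to 12.6 RPKM), while the Rab7 promoter had 15.5 and 16.4 RPKM. At Rab37 the strongest of the 3, 9101 bases after the TSS, went from 6.24 to 20.8 RPKM (3.33, 2.55 to 4.39). Rab44, a large Rab of mast cell granules, had a region going from 1.59 to 8.38 RPKM (5.25, 3.43 to 8.31).

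In RelBko the anti-RelB signal was lower than in WT, with 25 Rab genes enriched at 0 h and 9 at 1 h as given above, and its change over LPS is set beside that in WT. Of 27 compared Rab genes, 0 rose (0.338% of all genes) and 11 fell (44.3%). Most of the 27 thus entered only through the 0 h library, and such a filter favours falls, among all genes too. The median log2 ratio was -0.95, against -0.94 for all genes. The 2 libraries also differed in the share of reads inside all regions, as given above. Scaled on regions enriched in no ChIP library (shift -0.13), 17 fell and 0 rose. Scaled to a median ratio of 1 (shift 0.93), 3 Rab genes rose and 1 fell. The latter centres all compared regions on a ratio of 1 by construction, so it cannot show a direction that they share. Which scaling fits these libraries was not tested. Rab11a, the central Rab of recycling endosomes, fell by 2.02 in log2, from 9.33 to 1.92 RPKM (61 and 14 reads, ratio 0.206, 0.106 to 0.372). It was the 1 gene that also fell with the median ratio set to 1. This Rab11a region was an intron 34667 bases after the TSS, beyond a region classed as gene end at 22400 bases. It was assigned by the nearest TSS, and whether the intron is one of Rab11a or of a neighbour was not tested. Rab5a went from 7.09 to 1.82 RPKM, Rab10, of surface delivery, from 5.15 to 1.62 RPKM and Rab37 from 7.06 to 2.45 RPKM. The input held 2.23 RPKM at the Rab11a region, 2.01 at Rab5a, 1.54 at Rab10 and 1.72 at Rab37. The 1 h values of Rab11a and Rab5a thus lay below the input and that of Rab10 near it.

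Of 75 Rab regions, 2 rose in RelBko (0.863% of all regions) and 32 fell (44.1%). Here too the filter favours falls, as 72 Rab regions were enriched at 0 h and 24 at 1 h. Both that rose were Rab27a introns. Rab27a docks secretory granules and exosome-bearing compartments at the plasma membrane. Its region 7233 bases after the TSS went from 1.55 to 5.29 RPKM in RelBko (11 and 42 reads, ratio 3.42, 1.73 to 7.37) and from 4.13 to 12.9 RPKM in WT. The region at 9236 bases went from 2.08 to 4.97 RPKM in RelBko (15 and 40 reads) and from 7.11 to 8.60 RPKM in WT. At the strongest Rab27a region, 16044 bases after the TSS, RelBko values were 3.51 and 6.88 RPKM (ratio 1.96, 1.16 to 3.40) and WT values 42.5 and 44.8 RPKM. Among Rab genes, that RelBko value of 6.88 RPKM was the highest of the library.

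RelA at 1 h of LPS was compared between WT and RelBko, the comparison that asks how the loss of RelB affects RelA on DNA. Of 50 compared Rab genes, 1 was higher in WT (2.85% of all genes) and 0 were lower (0.498%). The median log2 ratio was -0.03, against 0.01 for all genes. The gene was Rab29, at 26.7 RPKM in WT (211 reads) and 12.0 in RelBko (129 reads), a ratio of 2.23 (1.78 to 2.80). At the same region RelB was 22.8 and 61.0 RPKM in WT at 0 h and 1 h. The 4 other Rab29 regions had log2 ratios of RelA of 0.07 to 0.62, below the limit. Next came Rab33b, at 24.2 against 12.6 RPKM (1.92, 1.48 to 2.49), Rab15, which acts in early and recycling endosomes, at 9.71 against 5.73 RPKM, and Rab3c at 10.7 against 7.03 RPKM, all within 2-fold. In the other direction Rab2a, of the ER and Golgi, had 11.6 against 18.5 RPKM (ratio 0.624, 0.464 to 0.831), Rab5c 10.0 against 14.5 RPKM, Rab26 9.23 against 12.6 RPKM and Rab3d 11.5 against 15.1 RPKM.

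Of 215 Rab regions, 6 were higher in WT for RelA (4.94% of all regions) and 1 was lower (1.30%). The largest log2 ratio, 1.71, was at a Rab11a region 29108 bases upstream (chr9:64614466-64614876), with 20.5 RPKM in WT (148 reads) and 5.91 in RelBko (58 reads), a ratio of 3.48 (2.55 to 4.79). RelB at that region was 47.7 RPKM at 1 h in WT. The other 5 were near Rab15 (5.34 against 1.38 RPKM), Rab29 as above, Rab38 (5.39 against 2.04 RPKM), Rab7 (7.45 against 2.94 RPKM) and Rab37 (4.33 against 1.81 RPKM, 28 and 16 reads). The lower one, in a 5′ UTR near Rab5b, rested on 12 and 40 reads (1.67 against 4.08 RPKM). None of the 33 compared Rab promoters was called in either direction, where 0.966% of all promoters were higher and 0.458% lower.

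**Figure D4:**
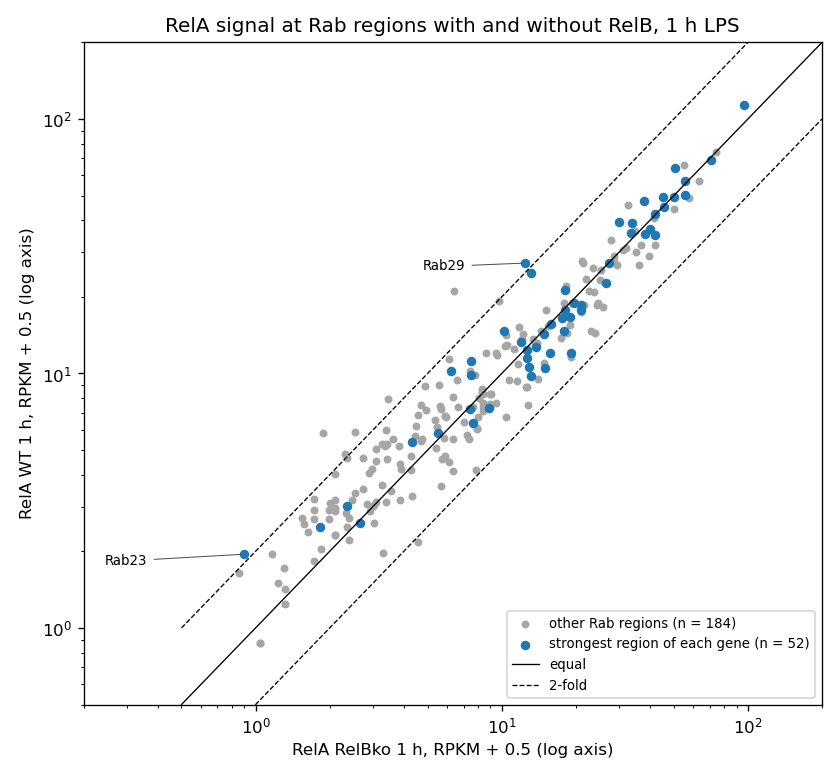
RelA signal after 1 h of LPS in RelBko (horizontal) and WT (vertical), RPKM + 0.5 on log axes, for the strongest region of each Rab gene (blue, n = 52) and the other Rab regions (grey, n = 184). Most points lie between the 2-fold lines. Rab29 lies above them, and Rab23 is drawn but was not compared because neither library was enriched there.

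RelA was set against RelB in WT at 1 h to see which subunit's signal was higher near each gene. The antibodies differ, so a ratio compares 2 libraries and not amounts of protein. Of 52 Rab genes, 4 were higher for RelA (6.66% of all genes) and 3 were higher for RelB (5.41% of all genes were lower for RelA). The median log2 ratio was -0.10, as for all genes. Rab5b, the early endosome paralog of Rab5a, had 47.0 RPKM of RelA and 15.1 of RelB (ratio 3.12, 2.58 to 3.80). Rab34 had 38.8 and 16.4 RPKM (2.36, 1.93 to 2.91), Rab7 63.6 and 31.3 RPKM (2.03, 1.74 to 2.37), and Rab13, of tight junctions, 4.88 and 2.19 RPKM on 29 and 21 reads. On the other side were Rab27a at 18.4 of RelA and 44.8 of RelB (0.411, 0.332 to 0.505), Rab29 at 26.7 and 61.0 RPKM (0.437, 0.374 to 0.510) and Rab7b at 35.3 and 72.9 RPKM (0.485, 0.417 to 0.561). Rab23 came next at -0.94, on 8 and 29 reads. With a median ratio of 1 (shift 0.16), 4 were higher for RelA and 2 for RelB, without Rab7b. Read at the region nearest to the TSS, Rab27a had 1.28, Rab29 0.0082 and Rab7 -0.21, and Rab7b was not called either, so the 3 calls on the RelB side and that of Rab7 did not hold there.

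Of 223 Rab regions, 23 were higher for RelA (7.45% of all regions) and 16 were higher for RelB (7.21% of all regions were lower for RelA). Those higher for RelA lay near 18 genes and those higher for RelB near 11. Rab44 had 4 of the former, the largest at 4.71 of RelA and 0.729 RPKM of RelB, on 28 and 7 reads. Rab8b had 4 of the latter, as at 2861 bases upstream with 18.8 of RelA and 55.3 RPKM of RelB (0.341, 0.275 to 0.419). Regions of the same gene could differ in sign. At Rab27a, the 5′ UTR region had 14.9 of RelA and 5.83 RPKM of RelB, against the opposite order 16044 bases downstream. No Rab promoter was higher for RelB, and 2 of 34 were higher for RelA (5.88%, Rab13 and Rab15). Of all compared promoter regions within 100 kb, 7.07% and 1.11% were higher for RelA and RelB.

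**Figure D5:**
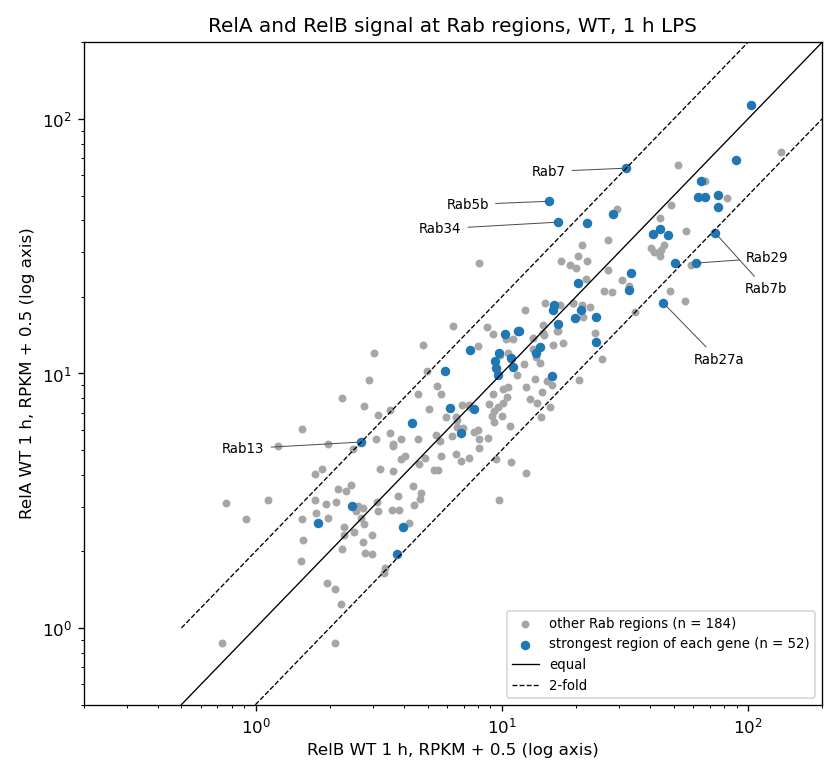
RelB (horizontal) and RelA (vertical) signal in WT after 1 h of LPS, RPKM + 0.5 on log axes, for the strongest region of each Rab gene (blue, n = 52) and the other Rab regions (grey, n = 184). Rab5b, Rab34, Rab7 and Rab13 lie above the upper 2-fold line, and Rab27a, Rab29 and Rab7b below the lower line.

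Paralogs did not always share a call. Rab7 and Rab7b, of late endosomes, lay on opposite sides for RelA against RelB, with log2 ratios of 1.01 and -1.03. Rab8a and Rab8b had -0.71 and 1.07 for the LPS change of RelB in WT. Rab22a and Rab31, a pair of endosomal Rabs, had -0.16 and 1.33 for the same change, as Rab22a went from 45.4 to 40.7 RPKM (ratio 0.896, 0.785 to 1.02). Rab5b and Rab5c had 1.61 and 0.15 for RelA against RelB. Read at the region nearest to the TSS, the calls of Rab7, Rab7b, Rab8b and Rab31 were lost, and with the mean over all regions of a gene that of Rab5b was lost too. Each value is that of 1 region per gene, and paralogs were read at regions of different position and class. The members also include neighbours. The strongest Rab7b and Rab29 regions are 176.9 kb apart on chromosome 1, and those of Rab43 and Rab7 251.1 kb apart on chromosome 6.

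The 6 comparisons share libraries, so most of their values are not independent. The LPS change of RelB in WT and the RelA ratio between genotypes share none. Over the 192 Rab regions compared in both, Pearson's r was 0.0063 and Spearman's rho -0.04, and over all 72233 such regions -0.07 and -0.08. These are correlations across regions of the same few libraries, given as a description.

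Other genes of the Rab cycle were read from a list of 66 genes (inhibitors, prenylation enzymes, exchange factors, GTPase-activating proteins and effectors), of which 64 had a region. At 1 h, 62 of 62 compared were higher for RelB in WT than in RelBko (97.9% of all genes), with Eea1, the early endosome tether bound by Rab5, highest at 87.9 against 1.96 RPKM. At 0 h, 56 of 61 were higher (85.7% of all genes). With LPS in WT, 2 of 62 rose and 1 fell (6.58% and 1.09% of all genes). Sytl3, an effector of Rab27, went from 6.71 to 37.8 RPKM, and Rilp, the Rab7 effector that couples late endosomes to dynein, from 5.52 to 18.7 RPKM. Rabgap1, a GTPase-activating protein, fell from 109 to 53.4 RPKM. In RelBko, 18 of 45 fell with LPS (44.3% of all genes), among them Tbc1d10a, from 11.9 to 2.98 RPKM.

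For RelA between genotypes, Plekhm1, a Rab7 effector of lysosome fusion, was the only 1 of 63 compared regulators called, at 21.4 RPKM in WT and 8.72 in RelBko (2.85% of all genes were higher and 0.498% lower). Dennd5b had the lowest log2 ratio, -0.96 (1.39 against 3.18 RPKM). For RelA against RelB in WT, 4 of 63 were higher for RelA and 2 lower (6.66% and 5.41% of all genes). Chml, Dennd1a, Mon1a and Tbc1d10c were higher for RelA, as Dennd1a, an exchange factor of Rab35, at 28.8 and 11.6 RPKM. Gdi2, which holds GDP-bound Rabs in the cytosol, was higher for RelB, at 14.7 of RelA and 45.5 RPKM of RelB, as was Plekhm1 at 21.4 and 60.0 RPKM. The median log2 ratios of the list were 3.16, 2.08, 0.18, -0.94, 0.04 and -0.05 in the order of the comparisons above.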

How the data were processed

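The authors deposited a single table of 93611 regions with RPKM per library (reads scaled to region length and library depth) and the distance in bases to the nearest TSS, per the file headers. HISAT2, HOMER, bedtools and mm9 are named per the submitters' processing notes, without versions or roles. How the regions were chosen and whether starts count from 0 or 1 are not stated. RPKM is no count, so no count model was fitted. As the values are whole multiples of what 1 read is worth, reads were recovered by dividing (100.0% of values whole within 0.01 read), which could be 1 too high if the authors added 1.

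Computed here were log2 ratios of RPKM + 0.5 over regions enriched (2 RPKM and 2-fold over input) in either library, called at 2-fold, and exact Clopper-Pearson 95% intervals of read ratios. Reads carry no molecular identifiers, so intervals cover counting error only. Depth was 13188833 to 35064429 reads per library, and input reads at the strongest Rab regions numbered 1 to 17, which limits every ratio to the input. Each gene was read at the region of highest mean RPKM over the 6 ChIP libraries. Genes named were the 8 highest in WT, the 4 largest in each direction per comparison, every called gene where there were at most 8, up to 4 paralog pairs, and 2 regulators per direction. Other genes and regions were chosen after their values were seen. Members and lists were chosen with earlier results of these data known. Alternatives varied the pseudocount, the enrichment rule, the scaling, the region standing for a gene, the distance limit, the call and the recovered reads. Python 3.11.15, numpy 2.4.6, pandas 2.3.3, SciPy 1.17.1 and matplotlib 3.10.9 were used, and the steps were tested on simulated data. Promoter windows came from RefSeq on GRCm38.p6.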

Additional observations from a re-analysis of the deposited data

Results flagged for a closer look

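The 22 regions more than 100 kb from their Rab gene's TSS were left out of every comparison and also carried signal, at about the share seen in the whole table. RelA in WT was enriched over input at 18 of 22 (81.8%, against 72.2% of all regions beyond 100 kb and 82.0% of all regions), with 0.554 to 15.9 RPKM and a median of 4.50. RelB in WT was enriched at 19 regions at 0 h and at 19 at 1 h, and RelA in RelBko at 16. RelB in RelBko was enriched at 3 regions at 0 h and at 0 at 1 h. The regions belong to Rab11a (10), Rab3c (8), Rab2a (3) and Rab38 (1), and were assigned by the nearest TSS alone.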

How the results depend on the processing

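Of the values that answer a comparison or count enriched genes per library, 188 stayed within 1.5 times the reported count, or within the spread allowed for a median. Another 40 did not. Counts of 0 that stayed at 0 are among the 188. The cause was not tested. For RelB in WT against RelBko at 1 h, the median log2 ratio was 2.38 with a pseudocount of 2 RPKM, 2.28 at the region nearest to the TSS, 2.25 scaled on the 3628 regions enriched in no ChIP library and 0.55 scaled to a median ratio of 1, where 18 genes were higher and 2 lower. At 0 h these medians were 1.38 nearest to the TSS, 1.23 and 0.18, with 15 higher and 2 lower under the last. For LPS in WT, 4 genes rose nearest to the TSS, 4 with the mean over all regions of a gene, and 3 fell at a 1.5-fold call. For LPS in RelBko, 17 genes fell with a pseudocount of 0.1 RPKM, 3 with 2 RPKM, 3 with enrichment at 4 RPKM and 4-fold, and 6 with the mean over regions. Scaled on regions without enrichment, 17 fell (median -1.08), and scaled to a median ratio of 1, 1 fell and 3 rose (median -0.025). At 1.5-fold, 20 fell and 1 rose, and within 10 kb 1 rose. For RelA in WT against RelBko, 2 genes were higher with no filter, 0 nearest to the TSS, 0 with the mean over regions, and 3 higher and 1 lower at 1.5-fold. Its median was -0.14 scaled on regions without enrichment. For RelA against RelB, 2 were higher with a pseudocount of 2 RPKM. None was lower (0 genes) nearest to the TSS, with the mean over regions or within 10 kb, and at 1.5-fold 8 were higher and 11 lower. With enrichment at 4 RPKM and 4-fold, RelB in RelBko was enriched at 4 genes at 0 h and at 0 at 1 h. The 3 genes that fell with LPS in RelBko under that rule were thus of 4 compared, against 11 of 27 in the main setting.

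Changes of sign were listed only for genes named by the fixed rule whose ratio was at least 2-fold in the main setting. Smaller ratios could change sign without being listed. Those listed were Rab17 for RelB in WT against RelBko at 0 h (-0.38 nearest to the TSS) and Rab37 for LPS in RelBko (0.32 within 10 kb). For RelA against RelB nearest to the TSS they were Rab27a (1.28, and 0.042 within 10 kb), Rab29 (0.0082) and Rab7 (-0.21). Outside that rule, scaling to a median ratio of 1 turned every ratio smaller than the shift negative, and with it Rab1b and Rab4a at 1 h and Rab1b and Rab3a at 0 h went from above 0 to called lower for RelB in WT against RelBko. Scaling to a median ratio of 1 also moved the split of all compared regions. For LPS in WT it went from 8901 higher and 1358 lower to 6823 and 2511, and for RelA against RelB from 6336 and 6129 to 8298 and 3767. For RelA between genotypes it went from 3994 and 1055 to 2954 and 1622 when scaled on regions without enrichment. No paired analysis was possible because each group holds 1 library, and no library could be left out for the same reason. Depth limits the low regions most, as the input held a median of 6.5 reads at the strongest Rab regions.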
